A study of Mus musculus with 12 samples.

Results

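The genes of the proteasome, the protease complex that degrades ubiquitin-tagged proteins, were examined in pancreatic islets of NOD mice treated with an antibody against CD3 or with control IgG. Members were all rows of the authors' deposited comparison table whose gene name begins with Psm, followed by a, b, c, d, e or g and a digit. This rule gave 47 genes of 13703 in that table, and all 47 were among the 13115 genes left for testing after genes with low counts were removed. Another 6 genes of the 49315 in the count table fit the name but had 0 to 12 counts in all libraries together, among them the testis gene Psma8 and the thymus gene Psmb11. Psmc3ip, a meiotic recombination factor, fits the name without being a subunit, and Psme2b is a close copy of Psme2 in a single exon, so reads may be shared between these copies.

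The proteolytic core of the proteasome is a barrel of alpha and beta rings, and each beta ring holds 3 catalytic subunits, encoded by Psmb5, Psmb6 and Psmb7. Interferon gamma induces alternative catalytic subunits, encoded by Psmb8, Psmb9 and Psmb10, which replace them to form the immunoproteasome, the form that predominates in lymphocytes and that supplies peptides for class I molecules. Psme1 and Psme2 encode the PA28 alpha and beta subunits, an interferon-inducible cap that opens the core, while the regulatory cap that recognises ubiquitin is built from ATPases (Psmc genes) and non-ATPase subunits (most Psmd genes).

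All libraries came from wild-type females of the NOD/ShiLtJ strain, in which lymphocytes enter the islets and autoimmune diabetes follows. Animals were euglycemic and 9 weeks old, and were given IgG or anti-CD3 at 2.5 mg/kg weekly for 4 weeks. Islets were isolated with collagenase 2 to 3 days after the last dose and were not treated further, and there were 6 IgG and 6 anti-CD3 libraries of polyadenylated RNA. The labels do not say whether a library is 1 mouse or a pool, so each p-value reflects only how these samples differed among themselves, which may be technical in part.

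Total counts were 11891132 to 17628347 per library in IgG and 10994337 to 19284740 in anti-CD3. Transcripts of 30 acinar marker genes, products of the exocrine pancreas, took 66.2% to 69.8% of counts in anti-CD3 and 62.2% to 69.0% in 4 IgG libraries, but 53.3% in IgG 5 and 31.3% in IgG 6. The 8 endocrine markers, with the insulin genes among them, took 0.995% to 4.00%, fewer than the acinar markers in every library, although the label is endocrine pancreas. The 18 leukocyte markers took 0.258% of counts in IgG 6 and 0.00265% to 0.0465% in the other libraries. The 47 proteasome genes together took 0.390% of counts in IgG 6 and 0.109% to 0.206% elsewhere. Of the counts outside the acinar genes, they took 0.567% in IgG 6 and 0.322% to 0.442% elsewhere, a smaller gap. In such bulk samples, fewer cells of a type and less RNA per cell cannot be told apart.

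No proteasome gene passed the test of anti-CD3 against IgG in edgeR's quasi-likelihood test (0 of 47 at a Benjamini-Hochberg adjusted p of 0.05), which called 0.0762% of all genes tested. At an unadjusted p under 0.05 there were 6 members with higher and 1 with lower levels in anti-CD3, 12.8% and 2.13% of the members, against 9.68% and 8.68% of all genes. DESeq2 called 2 members, Psmc6 higher and Psmd11 lower, which is 4.26% of the members where it called 4.04% of all genes. The authors' deposited table called the same 2 genes of 46 members with an adjusted p, against 4.55% of all genes.

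Fold changes are described by class of subunit, and the difference between classes was not tested. Of the 47 members, 34 had a log2 fold change above 0 (72.3%, against 44.8% of all genes tested), with a median of 0.12 where the median of all genes was -0.05. All 7 alpha ring genes, all 4 structural beta genes, all 3 constitutive catalytic genes and all 6 ATPase genes had positive values, with medians of 0.17, 0.25, 0.32 and 0.14. The catalytic genes of the immunoproteasome had a median of -0.49, with 1 of 3 above 0, and the PA28 alpha and beta genes with the copy Psme2b a median of -0.47, with 0 of 3 above 0. Both directions depended on the processing: with an offset for transcript length 10 of the 20 core and ATPase genes were positive, and without IgG 6 the median of Psmb8, Psmb9, Psme1 and Psme2 was -0.02.

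**Figure D1:**
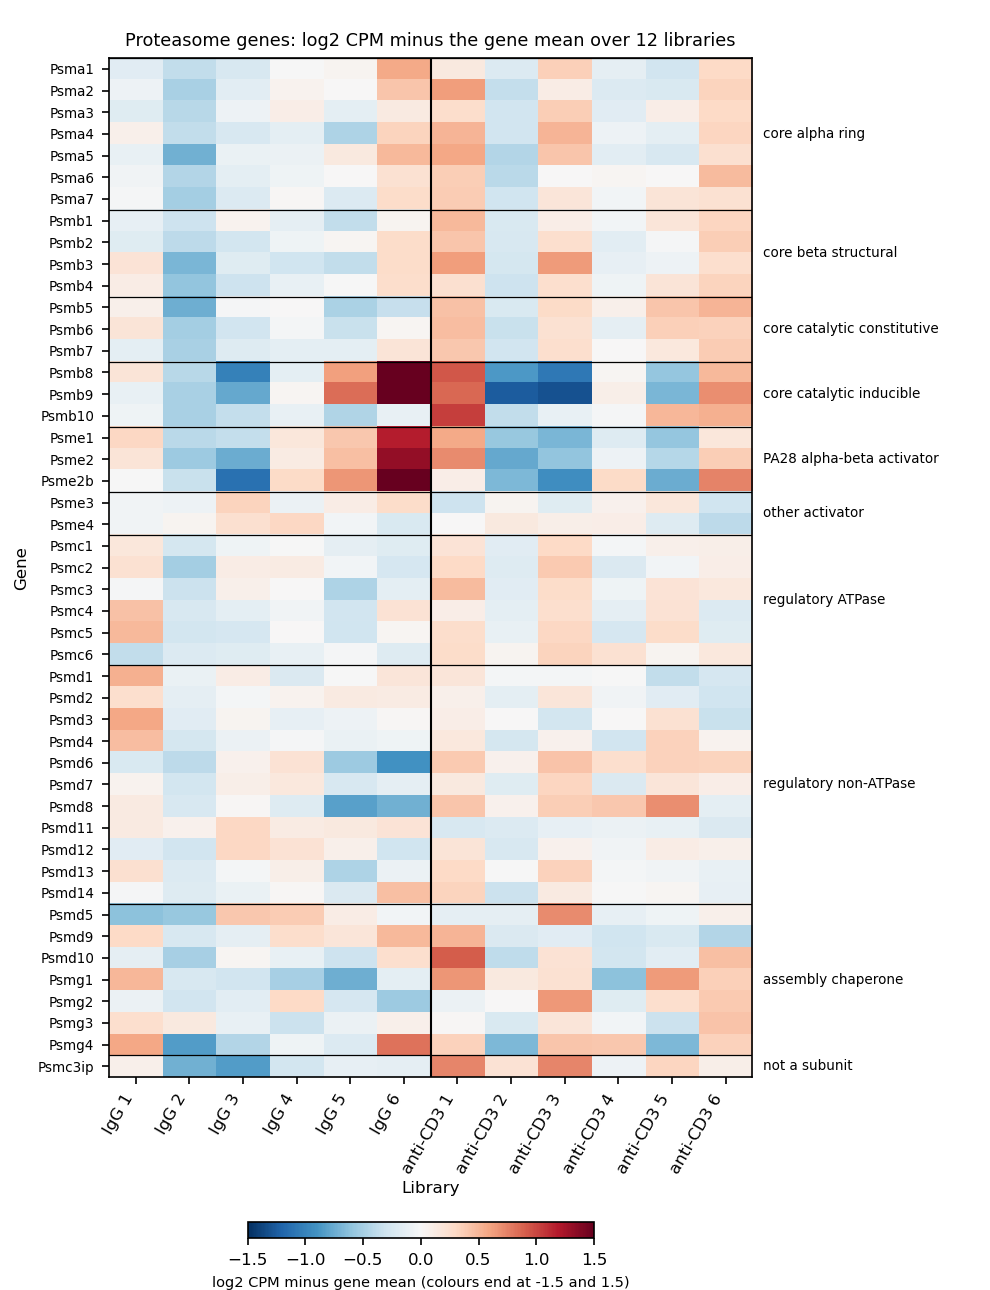
Level of each of the 47 genes (rows, grouped by class) in each of the 12 libraries (columns, IgG left of the line and anti-CD3 right of it), as log2 CPM (counts scaled to a common library size, on the log2 scale) minus the gene's mean over all libraries. Psmb8, Psmb9, Psme1, Psme2 and Psme2b are highest in IgG 6, while the core and ATPase genes vary less.

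Levels were compared between genes as the deposited normalized count per kilobase of the longest coding transcript, averaged over the 12 libraries. Psmb10 was the highest of the 47 on this scale, with 851 ± 325 (SD, n = 12), followed by Psme2 with 813 ± 415 and Psmb6 with 713 ± 161. These 3 neighbours differed by less than their spread over libraries. Psmb8 had 387 ± 286 and Psmb9 213 ± 183, against 259 ± 67.2 for Psmb5 and 438 ± 86.5 for Psmb7. With the length of all annotated exons together, these 4 means were 186, 78.8, 259 and 148, so their order depended on the length chosen. On that scale Psmb10 was still at rank 1, and Psmb6 was at rank 8. The 7 assembly chaperones, which help to build the complex and leave it, were low, from 23.7 for Psmd9 to 79.6 for Psmd10.

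Psmb8 encodes the inducible partner of Psmb5, the chymotrypsin-like site. It lies at chr17:34197721-34201454 on the forward strand of GRCm38 (ENSMUSG00000024338). Its normalized count was 599, 387, 255, 472, 795 and 1905 in IgG 1 to 6 and 996, 282, 242, 533, 351 and 741 in anti-CD3 1 to 6. IgG 6 stood above every other library, and without it the groups covered much the same range. The log2 fold change was -0.49 ± 0.48 (SE) with an adjusted p of 0.593 in edgeR's test, and 2 of 6 anti-CD3 libraries were above the IgG mean. Without IgG 6 it was 0.05, and without IgG 5 and IgG 6 it was 0.28. With the leukocyte or the acinar markers as a covariate it was 0.13 or 0.53. Of the single libraries, only IgG 6 changed the sign when left out. IgG 6 was both the highest in leukocyte share and the lowest in acinar share, and the part of each was not tested.

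Psmb9, the inducible partner of Psmb6, at chr17:34181987-34187764 on the reverse strand (ENSMUSG00000096727), had the widest relative spread of the 47 genes. Its coefficient of variation over the 12 libraries was 85.9%, and the highest library was 11.1-fold above the lowest. Normalized counts were 131 to 987 in IgG, with a median of 220, and 88.6 to 411 in anti-CD3, with a median of 190. IgG 6 was again the highest, anti-CD3 2 and anti-CD3 3 the lowest, and the groups overlapped. The log2 fold change was -0.67 ± 0.54 with an adjusted p of 0.512 in edgeR's test. It was -0.04 without IgG 6 and 0.28 without IgG 5 and IgG 6.

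Psmb8, Psmb9, Tap1 and Tap2 lie together within 34.34 kb of chromosome 17, from 34181987 to 34216321. Tap1 and Tap2 encode the pump that carries peptides to class I molecules. Psmb9 and Tap1 overlap by 212 bases on opposite strands, and because the sources used here do not say whether counting used strand, reads of that stretch cannot be assigned to either gene. In all, the annotated spans of 19 of the 47 members, introns included, overlap a gene on the opposite strand. Some of these genes had few or no counts, such as Gm26745 with 0 counts over 61459 bases of Psmd9. Others had more, such as Nek6 with 2957 counts over 6571 bases of Psmb7, which itself had 6601. Gm16156, with 184 counts, overlaps 2710 bases of Psmb10, and Gm20496, with 105, overlaps 2139 bases of Psmb8.

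Psme1 (chr14:55578123-55581529, forward strand, ENSMUSG00000022216) and Psme2 (chr14:55587441-55591113, reverse strand, ENSMUSG00000079197) are neighbours on chromosome 14. Psme1 had 370 to 1132 normalized counts in IgG (median 585) and 301 to 735 in anti-CD3 (median 380). Its log2 fold change was -0.47 ± 0.29 with an adjusted p of 0.394 in edgeR's test, and 1 of 6 anti-CD3 libraries exceeded the IgG mean. IgG 6 gave the maximum and anti-CD3 3 the minimum, and the groups overlapped, with anti-CD3 1 above 5 of 6 IgG libraries. Psme2 had 419 to 1790 in IgG (median 792) and 410 to 1157 in anti-CD3 (median 597), with a log2 fold change of -0.34 ± 0.35 and an adjusted p of 0.620 in edgeR's test. Without IgG 6 the fold changes were -0.20 for Psme1 and 0.00 for Psme2. The marker levels of leukocytes and acinar cells stand apart in the same library, and with the acinar markers as a covariate the fold changes were 0.01 and 0.30, with the leukocyte markers -0.17 and 0.06.

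Over Psmb8, Psmb9, Psme1 and Psme2, the median log2 fold change was -0.48, with 4 of 4 below 0. It was -0.02 without IgG 6, with 2 of 4 below 0, and 0.21 without IgG 5 and IgG 6, with 1 of 4 below 0. With the acinar markers as a covariate it was 0.39 and with the leukocyte markers 0.02. An offset for transcript length left it negative, at -0.69.

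Psmb10, the inducible partner of Psmb7, had a fold change of the opposite sign. It lies at chr8:105935735-105938444 on the reverse strand (ENSMUSG00000031897). Normalized counts were 752 to 1010 in IgG, with a median of 903, and 2189, 809, 958, 1042, 1506 and 1553 in anti-CD3 1 to 6. Anti-CD3 1, 5 and 6 stood well above every IgG library, anti-CD3 4 just above the IgG maximum, and anti-CD3 2 and 3 within the IgG range. The log2 fold change was 0.59 ± 0.21, 5 of 6 anti-CD3 libraries exceeded the IgG mean, and the adjusted p was 0.174 in edgeR's test. IgG 6, which led Psmb8 and Psmb9, was at 992 for Psmb10, inside the range of the other IgG libraries. Without anti-CD3 1 the log2 fold change was 0.41, without IgG 5 and IgG 6 it was 0.59, and with the length offset it was 0.32. With the acinar markers as a covariate it was 0.56, and with the leukocyte markers 0.68.

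Psmb10 lies 1872 bases from Ctrl (chr8:105932003-105933862, same strand), which encodes the digestive protease chymotrypsin-like and was chosen as a comparison after its values were seen. Ctrl had 54.0 to 398 times the normalized count of Psmb10. The 3 anti-CD3 libraries highest in Psmb10 were also the highest in Ctrl, with 391235, 407737 and 331927 normalized counts in anti-CD3 1, 5 and 6. In IgG 6, by contrast, Ctrl was at its minimum of 53568 while Psmb10 was at the level of the other IgG libraries. The log2 fold change of Ctrl was 0.57 ± 0.36 with an adjusted p of 0.405 in edgeR's test, and with the acinar markers as a covariate it was -0.07, where Psmb10 had 0.56. The part of Ctrl itself in the Psmb10 values was not tested.

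**Figure D2:**
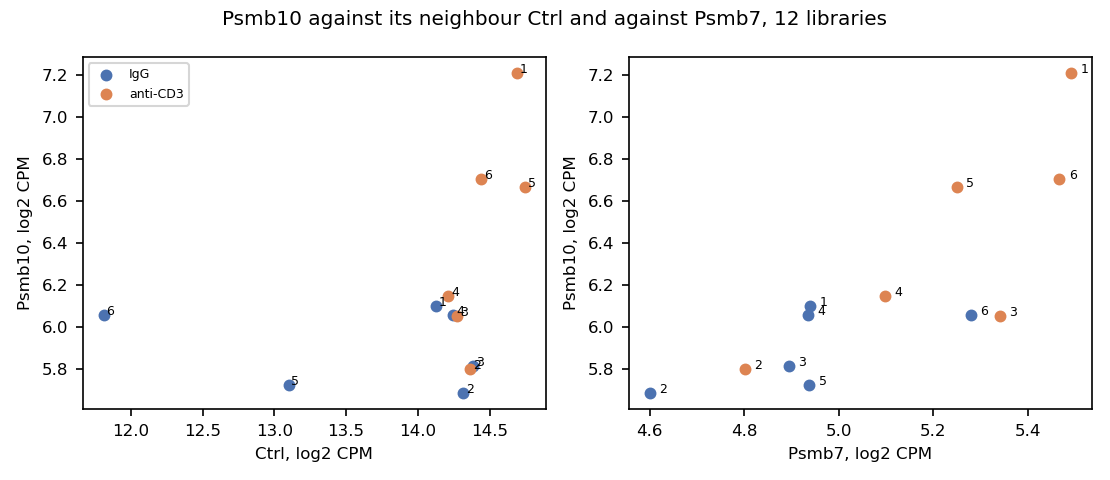
Psmb10 level (log2 CPM, vertical) against the level of the neighbouring acinar gene Ctrl (left) and of its constitutive partner Psmb7 (right), 1 point per library with its number in the group. Anti-CD3 1, 5 and 6 are highest in both Psmb10 and Ctrl, and IgG 6 is lowest in Ctrl without being lowest in Psmb10.

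The constitutive catalytic genes had coefficients of variation over the 12 libraries of 26.0% for Psmb5, 22.6% for Psmb6 and 19.8% for Psmb7, against 73.9% for Psmb8, 85.9% for Psmb9 and 38.2% for Psmb10. Psmb5 (chr14:54614119-54618022, reverse strand, ENSMUSG00000022193), which gives the chymotrypsin-like site, had 134 to 238 normalized counts in IgG (median 200) and 190 to 325 in anti-CD3 (median 287). The 4 highest libraries were all anti-CD3, while anti-CD3 2 and anti-CD3 4 lay within the IgG range. Its log2 fold change was 0.49 ± 0.17 with an adjusted p of 0.166 in edgeR's test.

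Psmb6 (chr11:70525367-70527858, forward strand, ENSMUSG00000018286), the caspase-like site, had 387 to 637 normalized counts in IgG (median 501) and 436 to 772 in anti-CD3 (median 679). Psmb7 (chr2:38588036-38644087, reverse strand, ENSMUSG00000026750), the trypsin-like site, had 354 to 578 in IgG (median 450) and 405 to 664 in anti-CD3 (median 574). In each of these genes 5 of 6 anti-CD3 libraries were above the IgG mean and anti-CD3 2 was the exception. The log2 fold changes were 0.32 ± 0.17 for Psmb6 and 0.31 ± 0.15 for Psmb7, with adjusted p of 0.317 and 0.273 in edgeR's test. The length offset changed Psmb5 to 0.13, Psmb6 to -0.03 and Psmb7 to 0.28.

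**Figure D3:**
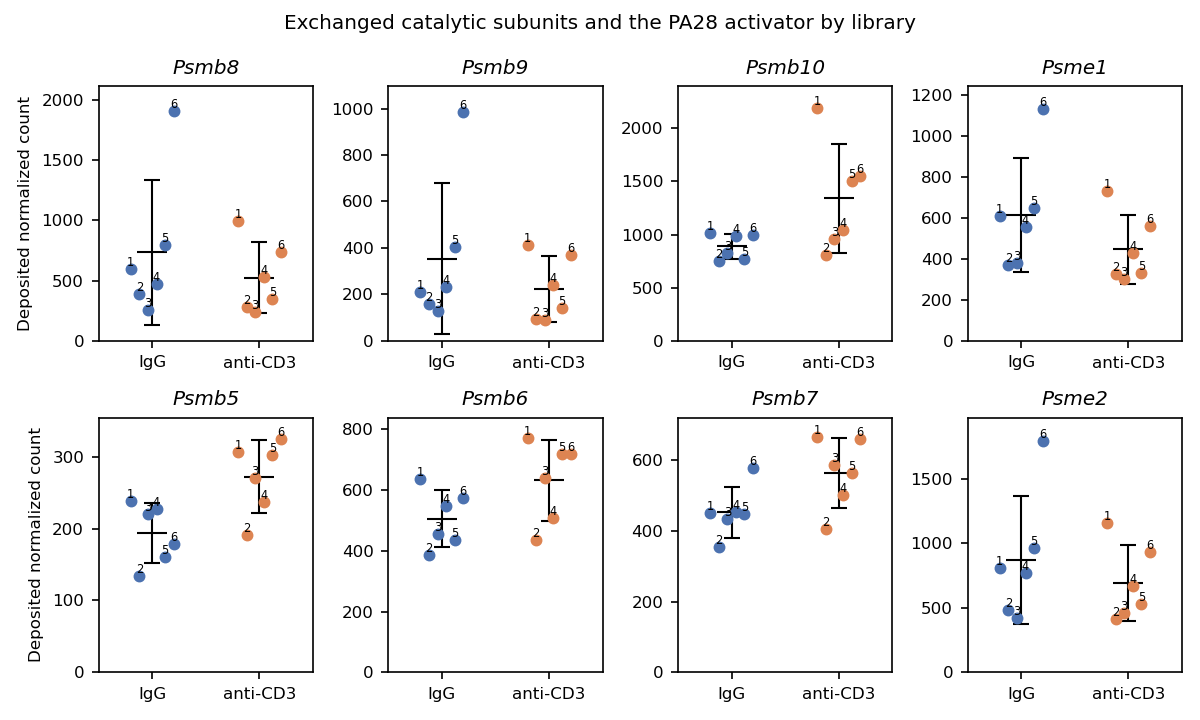
Deposited normalized count of the inducible catalytic genes Psmb8, Psmb9 and Psmb10 (upper row) above their constitutive partners Psmb5, Psmb6 and Psmb7 (lower row), with the activator genes Psme1 and Psme2 at the right. Points are libraries with their number, and bars are the mean and SD of 6 libraries; IgG 6 is the highest point for Psmb8, Psmb9, Psme1 and Psme2 but not for Psmb10.

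The exchange of catalytic subunits was described by the log2 ratio of each inducible gene to its partner within a library, scaled by transcript length. For Psmb8 to Psmb5 the mean ratio of the 6 IgG libraries was 0.78 ± 1.10 (SD) and that of the 6 anti-CD3 libraries -0.08 ± 0.69, a difference of -0.86. This lay within the spread of the libraries (two-sided exact permutation test over 924 regroupings, p = 0.145, adjusted over 3 ratios p = 0.212). Put as a share of the 2 transcripts together, Psmb8 was 85.5% in IgG 6 and 73.2% in IgG 5, 39.0% to 61.5% in the other IgG libraries and 33.0% to 64.2% in anti-CD3. Such shares, here and for the other pairs, depend on the transcript length used, while the differences between groups do not.

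For Psmb9 to Psmb6 the IgG mean was -1.63 ± 1.00 and the anti-CD3 mean -2.48 ± 0.84, a difference of -0.85 (two-sided exact permutation test, p = 0.143, adjusted p = 0.212). Psmb9 was the minor transcript of its pair in 11 of 12 libraries and reached 50.4% in IgG 6. For Psmb10 to Psmb7 the IgG mean was 0.80 ± 0.17 and the anti-CD3 mean 1.01 ± 0.35, a difference of 0.21 (two-sided exact permutation test, p = 0.212, adjusted p = 0.212). Psmb10 held 59.2% to 74.5% of its pair in every library, a narrower range than either other pair. Without IgG 5 and IgG 6 the first and second differences were both -0.25, and the third was 0.12.

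Across the 12 libraries, 4 of the 5 inducible genes followed Ptprc, which encodes the leukocyte surface phosphatase CD45. Pearson's r of log2 CPM with Ptprc was 0.879 for Psmb8 and 0.873 for Psmb9, each with a permutation p adjusted over 8 genes of 0.00136. For Psme1 and Psme2 it was 0.783 and 0.788, both with an adjusted permutation p of 0.00562. Spearman's rho was 0.818, 0.804, 0.678 and 0.706 in the same order, with adjusted permutation p of 0.0107, 0.0107, 0.0382 and 0.0352. Psmb10 had an r of 0.0766 and a rho of -0.00699, with adjusted permutation p of 0.814 and 0.991.

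For the constitutive partners the correlation did not pass, with r of -0.406 for Psmb5, -0.0943 for Psmb6 and 0.0753 for Psmb7 and adjusted permutation p of 0.303, 0.814 and 0.814. The difference between these correlations and those of the inducible genes was not tested. Their rho values were -0.364, -0.217 and 0.0699, with adjusted permutation p of 0.395, 0.664 and 0.953. Within the 6 anti-CD3 libraries, which had similar acinar shares, r was 0.932 for Psmb8, 0.940 for Psmb9, 0.874 for Psme1 and 0.856 for Psme2, with adjusted exact permutation p of 0.0556, 0.0556, 0.0556 and 0.0750. Within the 6 IgG libraries r was 0.838, 0.803, 0.667 and 0.727, with adjusted exact permutation p of 0.222, 0.222, 0.250 and 0.226. For Psmb10, r was 0.58 within anti-CD3 and -0.00366 within IgG, with adjusted exact permutation p of 0.342 and 0.992.

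The relation was smaller without the 2 libraries farthest from the median of Ptprc, IgG 6 and anti-CD3 3. Then r was 0.749 for Psmb8, 0.725 for Psmb9, 0.540 for Psme1 and 0.620 for Psme2. The adjusted permutation p were 0.0874, 0.0874, 0.216 and 0.164, so none of these genes passed. With fewer libraries and a narrower range of Ptprc, this cannot show whether the calls rested on those 2 libraries. Without IgG 5 and IgG 6, Psmb8 and Psmb9 had r of 0.775 and 0.763 with an adjusted permutation p of 0.0496 each, and Psme1 and Psme2 no longer passed, with r of 0.592 and 0.609 and an adjusted permutation p of 0.145 each. The level of Ptprc itself was 70.9 to 2339 normalized counts in IgG and 41.3 to 548 in anti-CD3, with a log2 fold change of -1.34 ± 0.80 and an adjusted p of 0.383 in edgeR's test. Without IgG 6 the log2 fold change of Ptprc was -0.43, and with the acinar markers as a covariate it was 0.34. All 17 tested leukocyte markers had negative fold changes, with a median of -1.24 and 0 of 17 called. Of all 13115 genes tested, 7233 had negative values.

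**Figure D4:**
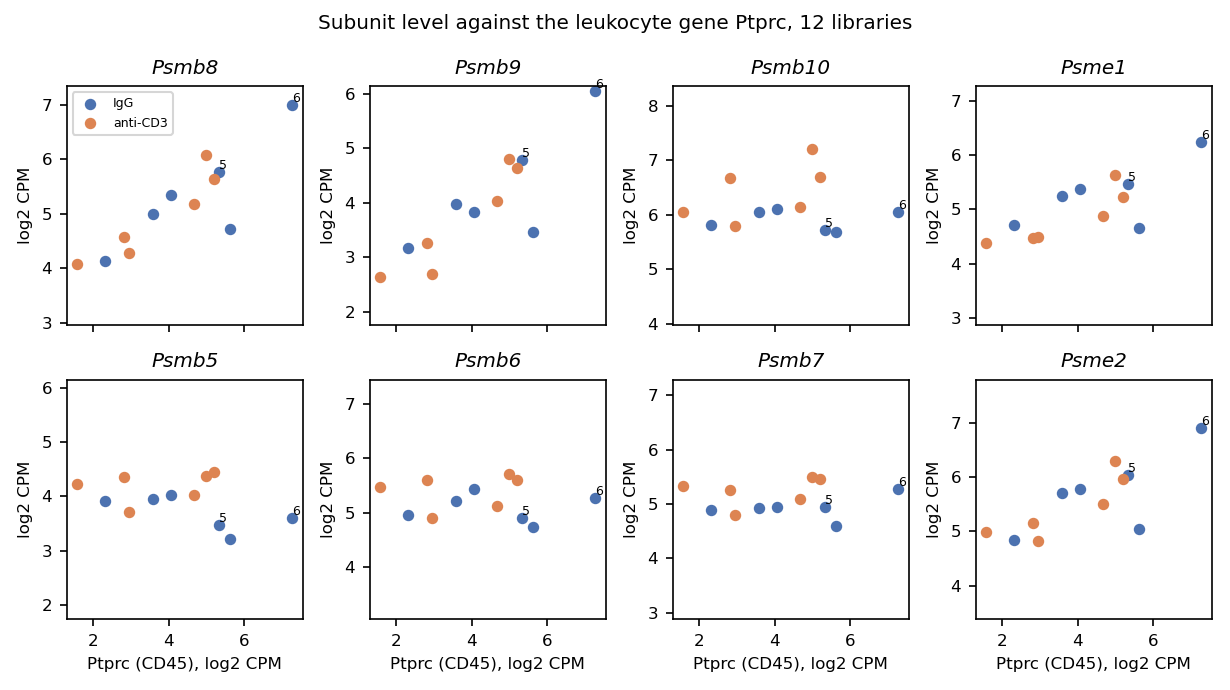
Level of each gene (log2 CPM, vertical, the same span of units in each panel) against Ptprc (log2 CPM, horizontal) in the 12 libraries, with IgG 5 and IgG 6 numbered. Psmb8, Psmb9, Psme1 and Psme2 are higher where Ptprc is higher (r of 0.783 to 0.879), and Psmb10, Psmb5, Psmb6 and Psmb7 have r of -0.406 to 0.0766.

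Among all 47 members, the 5 with the highest r with Ptprc were Psmb8, Psme2b (0.874), Psmb9, Psme2 and Psme1, and the next was Psmd9 with 0.389. At the other end stood Psmg2 with -0.676, Psmd6 with -0.671 and Psmd8 with -0.624. These values share library scaling and are given as a description. The 4 genes Psmb8, Psmb9, Psme1 and Psme2 were correlated with each other with a median r of 0.966 over 6 pairs, and the 14 constitutive core genes with each other with a median of 0.816 over 91 pairs. Between these sets the median r was 0.439. Psmb10 had a median r of 0.683 with the core and of 0.307 with the 4 inducible genes, and without IgG 5 and IgG 6 these were 0.797 and 0.699. Core genes had a median r of -0.04 with all genes tested.

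Promoter sequence was examined because some members moved together across libraries. RefSeq (GRCm38.p6) gave a promoter for 40 of the 47 members, and the 250 bases before each start were searched on both strands. A gamma interferon activation site, TTCNNNGAA, was present in 8.13% of 27025 genes, in Psmb8 alone among the 5 inducible genes, and in Psmg1 among 33 other subunits and chaperones. The site of Psmb8 begins 97 bases before its start. The stretch around it, chr17:34198090-34198114, is shown with the motif in capitals. This stretch lies inside the annotated span of the gene, whose longest model starts further upstream.
Psmb8: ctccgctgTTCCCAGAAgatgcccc
The interferon regulatory factor element GAAANNGAA was in 8.18% of all genes, in 0 of the 5 inducible genes and in 3 of the 33 others (Psmb3, Psmd4 and Psmd9). The CCAAT box, bound by the general factor NF-Y, was in 37.5% of all genes and in 14 of the 40 members (35%). A missing match says only that these letters are not in this window.

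The antioxidant response element TGACNNNGC, the sequence through which NRF1 (Nfe2l1) raises proteasome genes when proteasome activity is low, was in 11.5% of all genes, in 5 of the 33 others (15.2%) and in 0 of the 5 inducible genes. Its 5 carriers were Psmb5, Psmb6, Psmc6, Psmd12 and Psmd9. The stretches of Psmb5 (chr14:54618023-54618245, reverse strand), Psmb6 (chr11:70525107-70525356, forward strand) and Psmc6 (chr14:45329574-45329787, forward strand) are shown with the element in capitals, because these genes were among those with positive fold changes. Those of Psmb10 (chr8:105938445-105938642, reverse strand) and Psmd11 (chr11:80428365-80428614, forward strand), in which none of these elements was found, are shown beside them. Each is the part of the 250 bases that lies outside annotated exons.
Psmb5: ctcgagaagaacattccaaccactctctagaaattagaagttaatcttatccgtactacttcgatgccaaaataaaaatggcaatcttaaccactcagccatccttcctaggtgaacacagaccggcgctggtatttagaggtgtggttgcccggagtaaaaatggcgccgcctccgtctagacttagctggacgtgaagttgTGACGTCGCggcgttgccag
Psmb6: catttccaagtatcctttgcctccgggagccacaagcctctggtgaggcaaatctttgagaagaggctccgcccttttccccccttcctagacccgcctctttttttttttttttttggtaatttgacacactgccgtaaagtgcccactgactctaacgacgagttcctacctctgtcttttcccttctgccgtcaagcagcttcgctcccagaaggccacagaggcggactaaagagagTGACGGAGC
Psmc6: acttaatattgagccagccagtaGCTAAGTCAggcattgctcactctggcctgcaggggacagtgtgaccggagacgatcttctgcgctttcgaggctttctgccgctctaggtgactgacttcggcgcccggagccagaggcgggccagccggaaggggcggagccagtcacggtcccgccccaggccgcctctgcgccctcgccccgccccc
Psmb10: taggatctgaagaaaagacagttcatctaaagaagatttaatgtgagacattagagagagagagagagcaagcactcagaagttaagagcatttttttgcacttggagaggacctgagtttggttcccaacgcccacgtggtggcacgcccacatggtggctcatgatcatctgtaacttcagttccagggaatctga
Psmd11: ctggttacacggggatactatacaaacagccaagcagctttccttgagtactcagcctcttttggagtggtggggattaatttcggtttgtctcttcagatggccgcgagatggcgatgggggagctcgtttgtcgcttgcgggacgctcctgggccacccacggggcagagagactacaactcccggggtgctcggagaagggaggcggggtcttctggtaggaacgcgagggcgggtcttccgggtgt

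In Psmc6 the element is on the reverse strand and in Psmb5 and Psmb6 on the gene's own strand. Psmd9 and Psmd12 carry it as well, with fold changes of -0.29 ± 0.21 and 0.04 ± 0.14 that were not called. Whether the element bears on the direction was not tested.

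Among the other members, the groups of libraries did not overlap for 2 genes, and these were the genes that DESeq2 called. Psmc6, an ATPase of the regulatory cap at chr14:45329788-45349705 (forward strand), had 320 to 406 normalized counts in IgG (median 366) and 422 to 511 in anti-CD3 (median 476). Every anti-CD3 library was above every IgG library, which held for 1.14% of all genes. The log2 fold change was 0.36 ± 0.11, with an adjusted p of 0.133 in edgeR's test and 0.0462 in DESeq2.

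Psmd11, a scaffold subunit of the lid of that cap, at chr11:80428615-80473248 (forward strand), went the other way. It had 371 to 441 normalized counts in IgG (median 394) and 303 to 336 in anti-CD3 (median 318). Every anti-CD3 library was below every IgG library, which held for 0.649% of all genes. The log2 fold change was -0.33 ± 0.10, with an adjusted p of 0.135 in edgeR's test and 0.0304 in DESeq2. When any 1 library was left out, the fold changes ran from 0.33 to 0.41 for Psmc6 and from -0.35 to -0.30 for Psmd11. Both genes were singled out by their separation in these same libraries, so this narrow range is no separate support. The length offset gave 0.27 and -0.35.

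Psmd6 and Psmd8, subunits of the lid, had the largest positive fold changes of the 11 non-ATPase subunits. Psmd6 had 424 to 920 normalized counts in IgG (median 632) and 812 to 1037 in anti-CD3 (median 1003), a log2 fold change of 0.56 ± 0.17. Psmd8 had 589 to 1143 in IgG (median 894) and 951 to 1690 in anti-CD3 (median 1346), a log2 fold change of 0.59 ± 0.19. All 6 anti-CD3 libraries exceeded the IgG mean for both genes, and the lowest libraries were IgG 6 for Psmd6 and IgG 5 for Psmd8, the libraries low in acinar RNA. The adjusted p were 0.136 and 0.144 in edgeR's test. Without IgG 5 and IgG 6 the fold changes were 0.37 and 0.39, and with the acinar markers as a covariate 0.27 and 0.35.

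Of all 11 non-ATPase subunits, 7 had positive and 4 negative fold changes, with a median of 0.02. Psmd1 and Psmd2, the scaffolds at the base of the cap, had -0.18 ± 0.15 and -0.13 ± 0.13, and Psmd14, the subunit that removes ubiquitin, had 0.01 ± 0.15.

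Within the ATPase ring the fold changes ran from 0.01 for Psmc4 to 0.36 for Psmc6. Psmc3 had 462 to 671 normalized counts in IgG (median 610) and 561 to 893 in anti-CD3 (median 734), a log2 fold change of 0.29 ± 0.14. Of the 11 structural core genes, Psmb3, Psmb1 and Psma4 had the largest values, with 0.36 ± 0.20, 0.29 ± 0.14 and 0.28 ± 0.18, and the other 8 ran from 0.04 for Psma1 to 0.21 for Psma7. For Psmc3, Psmb3, Psmb1 and Psma4 the groups overlapped, and the adjusted p in edgeR's test ran from 0.290 to 0.422.

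The 14 constitutive core genes and 6 ATPase genes, grouped after their values were seen, all had positive fold changes (20 of 20, median 0.21). The 3 fits with other scaling (DESeq2, RLE and upper-quartile factors) gave 19 of 20, and the fit without IgG 5 and IgG 6 also 19 of 20. With an offset for transcript length, 10 of 20 were positive and the median was -0.00471. The 40 subunits and chaperones other than the inducible genes were also split by the length of the coding transcript, which the offset did not use. The shorter 20 (median 1162.5 bases) had 19 positive fold changes and a median of 0.21. The longer 20 (median 2191 bases) had 13 and 0.10. Over all genes tested Spearman's rho of fold change with transcript length was -0.330, and over these 40 it was -0.463, given as a description.

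**Figure D5:**
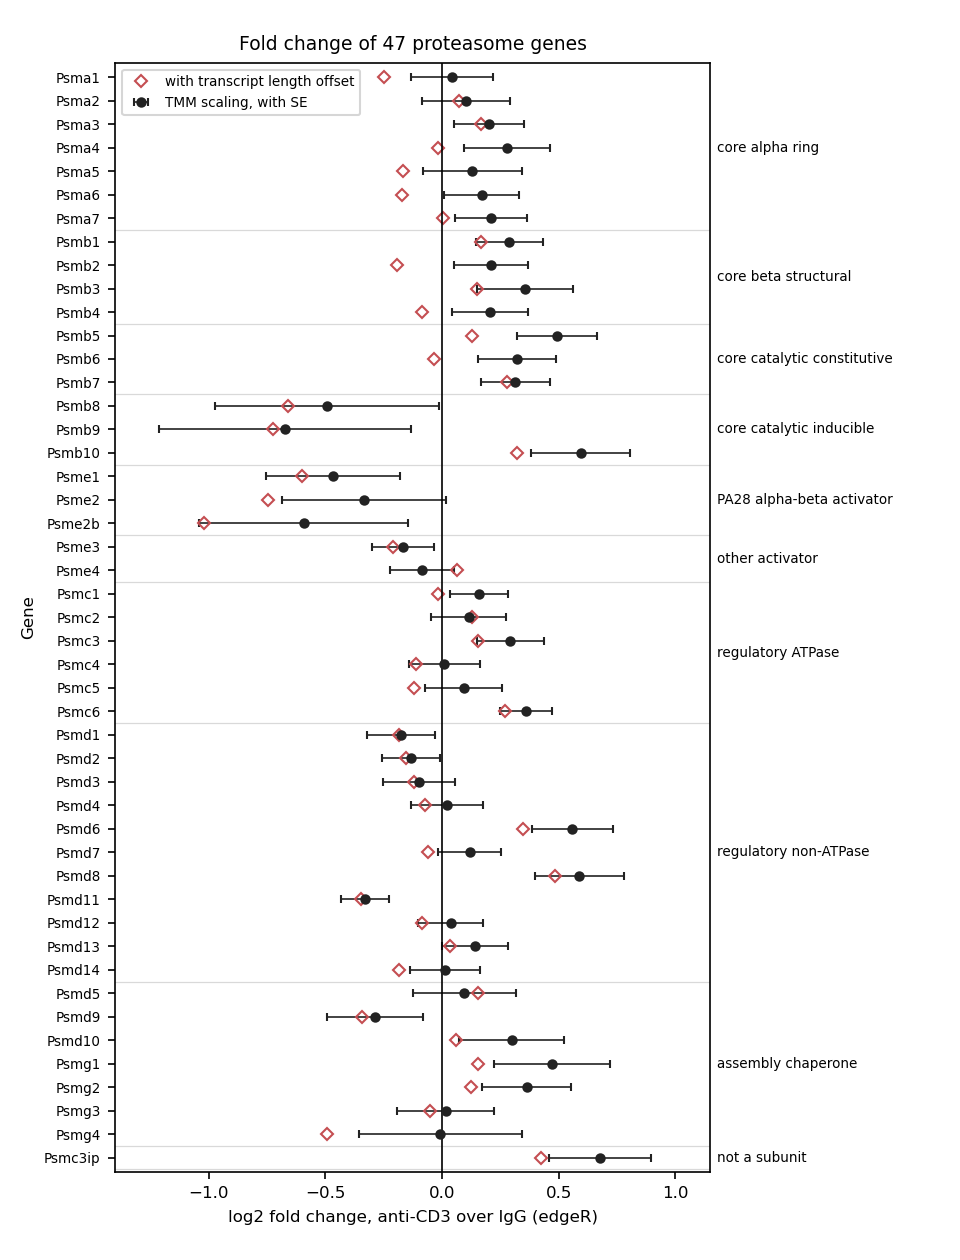
Log2 fold change between anti-CD3 and IgG (positive where anti-CD3 is higher) for each of the 47 genes, as black points with their SE from edgeR and as red diamonds with an offset for transcript length. The core and ATPase genes lie above 0 without the offset and on both sides of 0 with it, while Psmb8, Psmb9, Psme1 and Psme2 lie below 0 in both.

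Single libraries stood at the end of the range for many of these 40 genes. IgG 2 was the lowest library for 18 of the 40 and anti-CD3 1 the highest for 13. Without IgG 2, 18 of the 20 core and ATPase genes kept a positive fold change. The coefficient of variation of the 40 was 11.3% to 39.7%, against 44.6% to 85.9% for Psmb8, Psmb9, Psme1 and Psme2. Leaving out IgG 6, the 4 inducible genes still ranged from 31.4% to 53.4%, and the 40 from 11.5% to 36.7%.

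Assembly chaperones were among the least abundant members, and 5 of 7 had positive fold changes. Psmg1 and Psmg2, which pair to assemble the alpha ring, had log2 fold changes of 0.47 ± 0.25 and 0.36 ± 0.19, with adjusted p of 0.319 and 0.318 in edgeR's test. Psmg1 had 45.2 to 109 normalized counts in IgG (median 63.2) and 49.3 to 123 in anti-CD3 (median 94.2), and Psmg2 had 64.3 to 116 (median 80.6) and 82.2 to 146 (median 102). Psmd9, which assembles the base of the cap, had 50.3 to 85.7 in IgG (median 70.5) and 44.5 to 86.6 in anti-CD3 (median 51.0), a log2 fold change of -0.29 ± 0.21. Its anti-CD3 libraries were all at or below 52.2 but for anti-CD3 1 at 86.6, and without that library the fold change was -0.44.

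The remaining members gave no call. The activators Psme3 and Psme4, nuclear caps that are not induced by interferon, had -0.17 ± 0.13 and -0.08 ± 0.14. Psmc3ip, the gene outside the complex, had 34.9 to 67.4 normalized counts in IgG and 60.5 to 108 in anti-CD3, a log2 fold change of 0.68 ± 0.22 with an adjusted p of 0.142 in edgeR's test. Psmc3ip overlaps Mlx on the opposite strand by 385 bases.

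Genes that work with the proteasome but fall outside the name rule were examined in 3 lists. Of 19 tested assembly and associated genes, 10 had positive fold changes, the median was 0.00 and 0 were called in edgeR's test. Sem1, a small subunit of the lid, had 223 to 342 normalized counts in IgG (median 294) and 281 to 597 in anti-CD3 (median 494), a log2 fold change of 0.62 ± 0.18 with an adjusted p of 0.115. With any 1 library left out that p ran from 0.0437 to 0.239, the lowest without anti-CD3 2, where 203 genes in place of 10 were called in all. Uchl5, a deubiquitinase of the cap, and Ubb, a polyubiquitin gene, had 0.46 ± 0.20 and 0.37 ± 0.16, and Pomp, the maturation factor of the core, had 0.22 ± 0.18. Psmf1, an inhibitor of the core, was chosen after its values were seen. Its groups did not overlap, with 152 to 185 in IgG and 128 to 149 in anti-CD3, which held for 0.649% of all genes. The log2 fold change of Psmf1 was -0.27 ± 0.12, with an adjusted p of 0.242 in edgeR's test and 0.197 in DESeq2.

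The NRF1 pathway, which restores proteasome transcription, had 2 of 5 genes with positive fold changes and 0 called. Nfe2l1, its transcription factor, had 1171 to 1770 normalized counts in IgG (median 1292) and 803 to 1402 in anti-CD3 (median 1100), a log2 fold change of -0.32 ± 0.16. Ddi2 and Ngly1, the protease and the deglycosylase that process it, had -0.37 ± 0.15 and 0.54 ± 0.25, and the related factor Nfe2l2 had 0.31 ± 0.15. Adjusted p in edgeR's test were 0.207 to 0.290 for these 4 genes.

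Of 18 genes of interferon gamma signalling and class I peptide loading, 16 had negative fold changes, with a median of -0.48 and 0 called in edgeR's test. The transporter genes Tap1 and Tap2 had -0.94 ± 0.47 and -0.81 ± 0.31, Tapbp, which holds class I at the transporter, had -0.80 ± 0.27, and the kinase gene Jak1 had -0.43 ± 0.18. Nlrc5, a coactivator of class I genes, had -1.01 ± 0.48. Irf1, a factor that raises Psmb8 and Psmb9, had -0.46 ± 0.42, and B2m, the light chain of class I, had -0.50 ± 0.50. For these 7 genes the highest library was IgG 6. Without it the values were -0.42 for Tap1, -0.51 for Tap2, -0.52 for Tapbp, -0.30 for Jak1, -0.47 for Nlrc5, -0.02 for Irf1 and -0.03 for B2m. Adjusted p ran from 0.164 for Tapbp to 0.601 for B2m.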

How the data were processed

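Polyadenylated RNA was fragmented and sequenced from random primers, per the labels' protocols. Reads were processed with Trimmomatic 0.36, STAR 2.5.2b (GRCm38, mm10), featureCounts of Subread 1.5.2 and DESeq2, per the submitters' processing notes. The annotation release and the strand and multi-mapping settings were not given in the sources used here. The authors deposited whole-number counts per gene and a comparison table, with a normalized signal per library, a log2 fold change and p-values per gene. The deposited signal was used for per-library values, and the deposited counts for all tests. Every per-sample column was matched to a sample (0 unmatched).

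The main fit used edgeR 4.0.16 under R 4.3.3 (filterByExpr with minimum count 10 and total 15, TMM, robust quasi-likelihood F test, Benjamini-Hochberg over 13115 genes, adjusted p of 0.05, two-sided). Alternatives included DESeq2 1.42.0 and voom of limma 3.58.1. Log2 CPM used a prior count of 2. Symbols, coordinates and transcript lengths came from GENCODE M21 (GRCm38), and promoters from RefSeq. Length was that of the longest basic coding transcript, except in the length offset. The interferon regulatory factor motif was shortened by its last letter after a first search had been seen, which left the members that matched unchanged and raised the share of all genes that did. The length offset was a lowess trend (span 0.3) fitted in each library. It related log2 CPM minus the gene's mean to the log2 length of the longest transcript of any type.

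The members, gene lists and named genes were chosen with earlier results of these data known. Values are given for the 5 inducible genes, for Psmb5, Psmb6 and Psmb7, for up to 12 other members with the smallest p, for a panel of pathway genes and for up to 3 genes per list; Psmf1, Ctrl and examples of subcomplexes were added, and 1 gene of the panel is not reported here. Correlations over all 12 libraries used 100000 permutations, those inside a group of 6 all orderings, and ratios every one of 924 regroupings, which allow p down to 0.00216. Replicate numbers in the titles were used as names only, and whether they pair the libraries is not known. No 2 libraries agreed within sampling noise (lowest chi-square per gene 9.79, IgG 3 and IgG 4). The edgeR procedure was tested on simulated data. It called 39.18% of 97 genes changed 2-fold, 94.74% of 95 genes changed 4-fold and 6 unchanged genes. Smaller changes were not simulated. The simulated libraries shared a common composition and genes varied independently, unlike libraries such as IgG 5 and IgG 6, so these rates may not hold for the real data. Counts outside the acinar genes were 3435176 to 11065711 per library.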

Additional observations from a re-analysis of the deposited data

Results flagged for a closer look

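Dixon's test for a single extreme library was run on 46 groups of 6 libraries, at a critical value of 0.625. It marked 4, where chance alone gives about 2.3. Of these groups, 3 were the IgG libraries and the extreme was IgG 6. Psmb8 had 1905 normalized counts in IgG 6 and 255.5 to 794.5 in the other IgG libraries. Psmb9 had 986.9 in IgG 6 and 130.6 to 402.3 in the others. Psme1 had 1132 in IgG 6 and 369.7 to 647.9 in the others. IgG 6 also held 0.258% leukocyte marker counts and 31.3% acinar counts, and the part of these shares in the values was not tested. The fourth was the assembly chaperone Psmd9, with 86.63 normalized counts in anti-CD3 1 and 44.46 to 52.19 in the other anti-CD3 libraries.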

How the results depend on the processing

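The count of genes called among all tested was 10, and depended on the fit. It was 468 with DESeq2, 135 with limma-voom, 6 with upper-quartile factors, 167 without a filter on low counts, 5 without robust estimation, 0 with the acinar covariate, 238 with the leukocyte covariate, 4 with the length offset, 1 without both IgG 5 and IgG 6, and 0 to 203 when 1 library was left out, with 203 without anti-CD3 2 and 0 without IgG 5 or without anti-CD3 1, 5 or 6. The count of proteasome genes called was 0 in the edgeR fits and in limma-voom, and 0 to 0 with any library left out, and 2 with DESeq2. Without the filter, the median log2 fold change of all genes was -0.19.

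The replicate block gave 0 genes called, and left the proteasome calls at 0. For the 3 ratios, whose differences pairing cannot change, the paired exact sign-flip test gave p adjusted over 3 ratios of 0.234, 0.234 and 0.25, from differences of -0.86, -0.85 and 0.21. Same-numbered libraries had correlations of deviations of 0.0626, 0.129, 0.552, -0.203, -0.287 and 0.537, and 3 of 6 correlated best with their own number. These values do not settle whether same-numbered libraries were paired.

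Of the 47 members, the sign of the fold change differed in 16 with the length offset, 8 with the acinar covariate, 8 without IgG 5 and IgG 6, 6 with the leukocyte covariate, 3 with DESeq2, 3 with limma-voom and 1 with the replicate block. Among the genes given in full and the pathway genes, the values were as follows. With the acinar covariate they were 0.53 for Psmb8, 0.48 for Psmb9, 0.0122 for Psme1, 0.30 for Psme2, 0.34 for Ptprc, 0.23 for Irf1, 0.10 for Nlrc5, 0.0210 for Tap1, 0.37 for B2m and -0.0730 for Ctrl. With the leukocyte covariate they were 0.13 for Psmb8, 0.0570 for Psme2 and 0.0146 for B2m. Without IgG 5 and IgG 6 they were 0.28 for Psmb8, 0.28 for Psmb9, 0.15 for Psme2, 0.0608 for Irf1 and 0.16 for B2m. With any 1 library left out, Psmb8 ran from -0.772 (without anti-CD3 1) to 0.0540 (without IgG 6) and Psme2 from -0.537 to 0.00297 with the same libraries. The length offset gave -0.0349 for Psmb6 and -0.0189 for Psma4.

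The correlation with Ptprc without IgG 5 and IgG 6 was 0.592 for Psme1 and 0.609 for Psme2 (adjusted permutation p of 0.145 each) and -0.0189 for Psmb7. Without the 2 farthest libraries it was 0.749 for Psmb8, 0.725 for Psmb9, 0.540 for Psme1 and 0.620 for Psme2. Leaving out 1 library, the ratio differences ran from -1.14 to -0.50, from -1.03 to -0.52 and from 0.11 to 0.31. The causes of these shifts were not tested. Depth bears most on the assembly chaperones Psmg3 and Psmg4, with 526 and 362 counts over all 12 libraries.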
